A study of Homo sapiens with 6 samples.

Results

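The genes described here encode the factors that drive polypeptide elongation on the ribosome, the nascent polypeptide-associated complex (NAC), the translationally controlled tumour protein and the cytoplasmic poly(A)-binding proteins, together with the numbered pseudogene copies of each. Members were taken by symbol: EEF1A1, EEF1A2, EEF1B2, EEF1D, EEF1E1, EEF1G, EEF2, NACA, BTF3, TPT1, PABPC1, PABPC3, PABPC4, and any of these symbols followed by P and a number. The rule found 135 of the 68201 gene IDs in the count table, of which 15 were coding and 120 were copies, and 9 of the 13 symbols had copies. A read was counted on 94 of the 135 IDs, namely on 12 coding IDs and 82 copies, and 33 members (10 coding genes and 23 copies) had enough reads to be tested.

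The samples were 3 libraries of polyadenylated RNA from extracellular vesicles (EV), purified from medium conditioned by K562 cells, and 3 libraries from whole K562 cells (WC). K562 is a human line from a chronic myelogenous leukaemia with erythroid gene expression. Neither group carried a treatment or a genetic change. The cDNA was PCR-amplified and read on nanopores, and all results compare EV with WC libraries. The study's methods describe the replicates as biological, with the WC and EV library of 1 number run on the same flow cell. Because bulk RNA was measured, fewer vesicles that carry an RNA and less of it per vesicle cannot be told apart.

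Gene counts summed to 560157 to 881338 in EV and to 2480560 to 3178211 in WC libraries. All 11 erythroid and K562 markers had reads, with summed levels of 457 to 518 CPM (before TMM factors) in EV and 492 to 519 in WC libraries. Of 14 markers of other cell types 8 had reads, with summed levels of 25.0 to 39.3 CPM in EV and 34.9 to 39.96 in WC libraries for 4 lymphoid markers, 19.3 to 37.5 in EV and 68.1 to 122 in WC for 2 epithelial ones, 3.44 to 8.93 in EV and 53.6 to 76.1 in WC for 3 of megakaryocytes and platelets, and 0 to 3.44 in EV and 3.71 to 5.64 in WC for 4 myeloid ones. ALB, KRT5, MPO, MS4A1, PF4 and PPBP were at 0 in the 6 libraries, and the part of other cell types in the results was not tested. CPM are counts scaled to 1 common library total, and all further levels are CPM scaled by TMM factors too. Rose and fell stand for an adjusted p under 0.05 in the quasi-likelihood test of edgeR, adjusted after Benjamini and Hochberg over the 8716 genes tested. Enriched stands for an adjusted p of 0.01 or less together with a log2 fold change of 2 or more. The median log2 fold change of all tested genes was -0.13 with TMM factors and -0.78 with total-count scaling, so every direction is relative to TMM.

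In elongation, eEF1A (EEF1A1 or its paralog EEF1A2) brings aminoacyl-tRNA to the ribosome, the eEF1B subunits encoded by EEF1B2, EEF1D and EEF1G recharge eEF1A with GTP, and eEF2 moves the ribosome along the mRNA. EEF1E1 encodes a small protein of the multi-tRNA synthetase complex. NACA and BTF3 encode the alpha and beta subunits of NAC, which meets new chains at the ribosomal tunnel exit, and poly(A)-binding proteins coat mRNA tails. Many of these mRNAs start with a C followed by an unbroken run of pyrimidines, the terminal oligopyrimidine (TOP) motif that places their translation under control of the mTOR pathway. Abundant mRNAs of this kind have left many processed pseudogenes in the human genome, intronless copies made by reverse transcription.

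The start sites of some coding members are printed because they show which of those carry the TOP motif. Those of PABPC1, PABPC3, PABPC4, EEF1D and EEF1A2 are not shown, so nothing is said of their motif. The first 20 transcribed bases come from the RefSeq start-site table (GRCh38.p14), with the pyrimidine run from the first base in capitals.
EEF1A1: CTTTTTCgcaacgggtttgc
EEF1B2: CCTTTTTCCTCTCTTCagcg
EEF2: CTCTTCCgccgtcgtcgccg
NACA: CTTTCTgccgccatcttggt
BTF3: CCCTTTagctgccatcttgc
TPT1: CTTTTCCgcccgctcccccc
EEF1G: actttgcggcagcgccgaga
EEF1E1: gcgtctgccaggagctacgg
These lie at chr6:73521013-73521032 (minus strand), chr2:206159895-206159914 (plus), chr19:3985444-3985463 (minus), chr12:56725280-56725299 (minus), chr5:73498442-73498461 (plus), chr13:45341164-45341183 (minus), chr11:62573872-62573891 (minus) and chr6:8102529-8102548 (minus), in the order listed. EEF1A1, EEF1B2, EEF2, NACA, BTF3 and TPT1 begin with C and at least 4 further pyrimidines, which 4.07% of the 35116 start regions in that table do on the transcribed strand. EEF1B2 has a further entry 286 bases upstream that begins agcctcgaggccgggcgtct, at chr2:206159609-206159628 (plus), without such a run. The printed starts of NACA and BTF3 lie 217 and 34 bases from the start of the transcript used for alignment here. A match describes these letters only.

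A second set shows how far the copies can be told from their parents by sequence. Each line is a 30-base window of the transcript in GRCh38, chosen where the copies of a family differ most, with bases that differ from the parent in capitals.
EEF1A1: aaataagcgccggctatgcccctgtattgg
EEF1A1P5: aaataagcgccggctatgcccctgtattgg
EEF1A1P6: aaataagcAccggctatgcccctgtattgg
EEF1A1P13: aaataagcgcTggctatgcccctgtattgg
EEF1A1P12: aaataagcAcTggctatgcccctgtattgg
EEF1A1P24: aaatCagcgcTggctatgccGctgtaCtgT
EEF1A1P10: aaatCagTgcTgCctatTcccctgtaCtgg
EEF1B2: tgaagccgtgtccagcccaccgcctgccga
EEF1B2P3: tgaagccgtgtccagcccacTgcctgccga
EEF1B2P2: tgaagccgtgtccGgcccacAgcctgcTgG
TPT1: gatccgggagatcgcggacgggttgtgcct
TPT1P4: gatcTgggagatcATggacgggCtgtAcct
The windows of EEF1A1 (chr6:73518210-73518239, minus strand) and EEF1A1P5 (chr9:133020540-133020569, plus) are the same letter for letter. EEF1A1P6 (chr7:22510917-22510946, minus) and EEF1A1P13 (chr5:14652243-14652272, minus) differ from it at 1 base each, EEF1A1P12 (chr2:106697636-106697665, minus) at 2, EEF1A1P24 (chr3:39359589-39359618, plus) at 5 and EEF1A1P10 (chr7:144647491-144647520, minus) at 6. The EEF1B2 window is chr2:206160621-206160650 (plus), with EEF1B2P3 at chrX:24788927-24788956 (minus) and EEF1B2P2 at chr5:68159751-68159780 (minus). The TPT1 window is chr13:45340728-45340757 (minus), and that of TPT1P4 is chr6:144200880-144200909 (minus), 5 bases apart.

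Of the 10 coding members tested, 9 rose in EV libraries and 1, EEF2, fell. The rise of PABPC3 is partly set by the expression filter, as given below, and it enters these numbers. Over all 8716 tested genes 22.8% rose and 21.4% fell, and over the 6768 tested protein-coding genes 14.9% rose and 22.2% fell. The median log2 fold change was 1.66 for the 10 coding members and -0.24 for the tested protein-coding genes. EV and WC values did not overlap for any of the 10, a separation seen in 55.2% of all tested genes and 50% of the protein-coding ones. With total-count scaling 6 coding members rose (NACA, TPT1, EEF1E1, PABPC1, PABPC3 and PABPC4) and 2 fell (EEF1A1 and EEF2).

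EEF1A1, the main elongation factor 1 alpha gene, stood at 9542, 7471 and 7065 CPM in EV libraries, against 6423, 6800 and 5940 CPM in WC libraries. EV library 1 was the highest of the 6, and the lowest EV value was just above the highest WC value. The log2 fold change was 0.33 (SE 0.12, adjusted p = 0.031, edgeR) with TMM factors, and it turned to -0.32 (adjusted p = 0.025) with total-count scaling. The call was lost with a replicate block (log2 fold change 0.32, adjusted p = 0.074), with DESeq2 (0.22, adjusted p = 0.32), with no expression filter (0.12, adjusted p = 0.67), with WC libraries thinned to EV depth (0.23, adjusted p = 0.12) and on leaving out any 1 library other than EV 3, with adjusted p-values of 0.067 to 0.26. EEF1A2, the paralog known from muscle and neurons, had 1, 1 and 2 reads in EV and 2, 5 and 0 reads in WC libraries and was not tested.

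EEF1B2, the exchange factor subunit eEF1B alpha, stood at 959, 1249 and 1347 CPM in EV libraries, against 828, 777 and 771 CPM in WC libraries. Here EV library 1 was the lowest of the EV libraries, the opposite of its place for EEF1A1. The log2 fold change of EEF1B2 was 0.58 (SE 0.14, adjusted p = 0.0017, edgeR), and -0.09 (adjusted p = 0.51) with total-count scaling and 0.36 (adjusted p = 0.097) with no expression filter. EEF1D, the delta subunit of the same factor, had only 4, 6 and 4 reads in EV and 13, 16 and 10 reads in WC libraries and was not tested. Its 3′ end is shared with another annotated gene (below), so reads may be missing from these counts. EEF1G, the gamma subunit, had no gene counts in any library, and as its transcript lies within another annotated gene (below), this 0 sets no limit on its level.

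EEF2, the translocase, stood at 674, 541 and 473 CPM in EV libraries, against 933, 831 and 811 CPM in WC libraries. All EV values lay below all WC values, and the log2 fold change was -0.60 (SE 0.15, adjusted p = 0.0018, edgeR), the one fall among the tested coding members. EEF2 begins with a TOP run, as do EEF1A1, EEF1B2, BTF3, NACA and TPT1, which rose, and EEF1E1, which rose too, is the single tested gene shown above without one.

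EEF1E1, the synthetase complex gene, stood at 31.5, 27.8 and 47.9 CPM in EV libraries, against 8.59, 13.5 and 13.1 CPM in WC libraries, from 12 to 23 reads per EV library. The log2 fold change was 1.56 (SE 0.29, adjusted p = 0.00011, edgeR).

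The NAC subunits differed in size of change. NACA, the alpha subunit, stood at 421, 426 and 466 CPM in EV libraries, against 52.2, 61.0 and 54.1 CPM in WC libraries, a log2 change of 2.97 (SE 0.17, adjusted p = 3.2e-13, edgeR). NACA2, a companion gene that the rule leaves out, stood higher than NACA in every library, in counts that for NACA may miss reads (below). Its means were 692 ± 35.6 CPM in EV and 350 ± 13.6 CPM in WC libraries (SD, n = 3 each). NACA2 rose by less, with a log2 fold change of 0.98 (adjusted p = 3.3e-06, edgeR). BTF3, the beta subunit, stood at 988, 835 and 783 CPM in EV libraries, against 714, 642 and 577 CPM in WC libraries. Its log2 fold change was 0.43 (SE 0.14, adjusted p = 0.016, edgeR), and -0.22 (adjusted p = 0.14) with total-count scaling. The BTF3 call was also lost with DESeq2 (0.32, adjusted p = 0.11), with no expression filter (0.22, adjusted p = 0.41) and without EV library 1 (adjusted p = 0.071), WC library 2 (0.11) or WC library 3 (0.13).

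TPT1, the growth-related calcium-binding protein, stood at 619, 574 and 587 CPM in EV libraries, against 74.5, 92.2 and 88.4 CPM in WC libraries. The EV libraries lay close together and several-fold above each WC library, with a log2 change of 2.80 (SE 0.16, adjusted p = 5.1e-13, edgeR).

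The poly(A)-binding protein genes rose together. PABPC1, the main cytoplasmic form, stood at 204, 259 and 263 CPM in EV libraries, against 64.9, 68.7 and 78.8 CPM in WC libraries, with a log2 change of 1.76 (SE 0.18, adjusted p = 1.0e-08, edgeR). PABPC4, the inducible form, stood at 59.0, 60.1 and 82.2 CPM in EV libraries, against 15.1, 12.3 and 18.9 CPM in WC libraries (log2 fold change 2.10, SE 0.24). PABPC3, an intronless gene known from testis, stood at 23.3, 16.2 and 22.8 CPM in EV libraries, against 3.09, 2.55 and 1.75 CPM in WC libraries (log2 fold change 3.09, SE 0.40). These PABPC3 values rest on 7 to 17 reads per EV and 6 to 10 reads per WC library, so they are the least precise of the coding members. PABPC3 also passed the expression filter only through its EV libraries, so its rise is partly set by the filter. With NACA and TPT1, PABPC3 and PABPC4 made 4 coding members enriched in EVs, against 4.53% of all tested genes and 1.64% of the tested protein-coding genes.

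**Figure D1:**
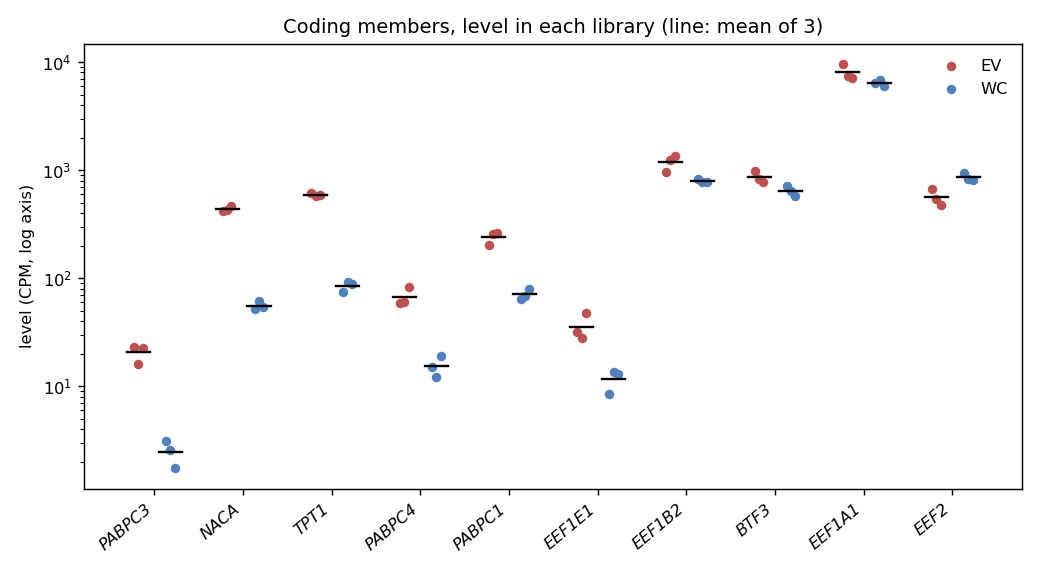
Level of the 10 tested coding members in each library in CPM on a log axis, EV left of WC for each gene, points for libraries and lines for the mean of 3. The EV points lie above the WC points for every gene but EEF2, by far more for PABPC3, NACA and TPT1 than for EEF1B2, BTF3 and EEF1A1.

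Per kilobase of the main isoform or, where none was quantified, of the canonical transcript, EEF1A1 had the highest level, 4594 ± 760 CPM per kb in EV and 3656 ± 247 in WC libraries (SD, n = 3 each). EEF1B2 at 1466 ± 249.8 and BTF3 at 1035 ± 127 CPM per kb followed in EV libraries, against 980.0 ± 38.8 and 768 ± 81.6 in WC libraries. TPT1 and NACA stood at 726 ± 28.4 and 534 ± 29.98 CPM per kb in EV libraries, above EEF2 at 178 ± 32.3. In WC libraries TPT1 and NACA stood at 104 ± 11.4 and 68.1 ± 5.66 CPM per kb, below EEF2 at 272 ± 20.7. These levels rest on gene counts, which for TPT1 and NACA may miss reads from exons shared with other genes, as described next, and in the authors' pooled isoform table TPT1 had a mean of 2289 reads and EEF2 one of 461. No pair of neighbours among the 10 tested genes overlapped in level within either group. PABPC3 was lowest, at 6.66 ± 1.28 CPM per kb in EV and 0.79 ± 0.22 in WC libraries.

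The 4 coding members with small changes and the 6 with large rises also differed in how their transcripts lie among other annotated genes (GENCODE v44). The study's methods name an earlier GENCODE release for the counts, so these overlaps may differ from those under which reads were counted. No exonic base of the canonical transcripts of EEF1A1, EEF1B2, BTF3 or EEF2 was shared with another gene of the count table, and their log2 fold changes ran from -0.60 to 0.58. The canonical transcripts of NACA, TPT1, EEF1E1, PABPC1, PABPC3 and PABPC4 each shared exonic bases with another gene, and their log2 fold changes ran from 1.56 to 3.09. In the main isoform of TPT1 the shared part was 31.0%, at positions 1 to 337 from the start, with a long non-coding RNA on the opposite strand. For NACA it was 27.0%, at positions 1 to 221, and for EEF1E1 47.1%, at positions 19 to 411, in both cases with a gene on the same strand. For PABPC1 it was 57 bases of a microRNA gene near the 3′ end, at positions 2752 to 2808 of 2860. PABPC3 shared 67.0% of its transcript with a long non-coding RNA on its own strand, and PABPC4 shared 7.83% with its antisense gene.

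The genes that share those bases had no counts in any library, apart from 1 read on the antisense gene of PABPC4. The study describes reads from regions of several genes as ambiguous and unassigned, so a read across a shared part may be missing from the counts of these 6 genes, and the strand setting is not given in the sources used here. Over all tested protein-coding genes, 22.2% of the 1966 with shared exonic bases rose in EVs, with a median log2 fold change of -0.02. Of the 4793 without them 11.9% rose, with a median of -0.29. The part of these overlaps in the rises of the 6 coding members was not tested, and the division was noticed after the values were seen.

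**Figure D2:**
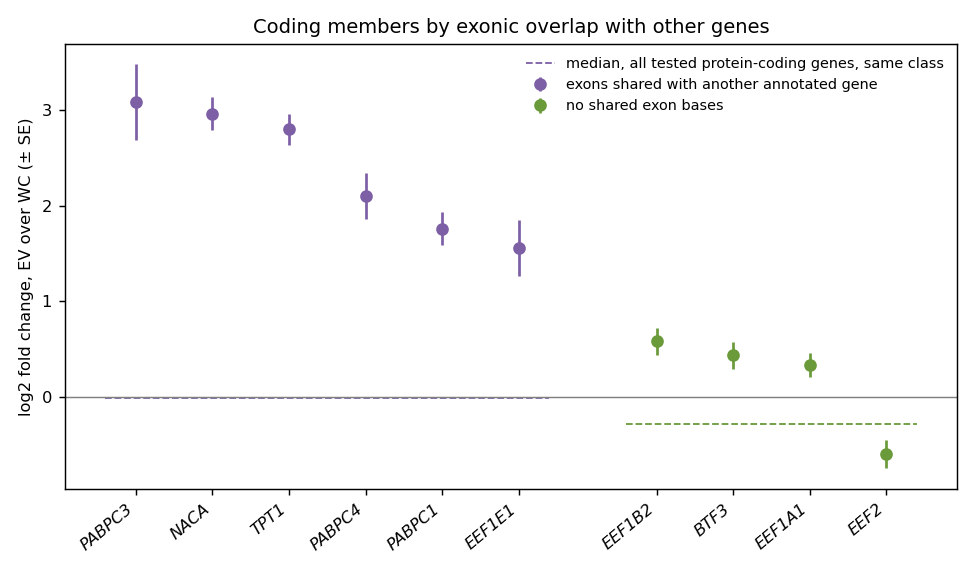
Log2 fold change of EV over WC with its SE for the 10 tested coding members, those that share exonic bases with another annotated gene on the left and those that do not on the right. The 6 on the left lie between 1.56 and 3.09 and the 4 on the right between -0.60 and 0.58, while the dashed medians of all tested protein-coding genes of the same class are -0.02 and -0.29.

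EEF1G is the extreme case: its main isoform lay wholly (100%) within a read-through gene on the same strand that also had no counts. The authors' isoform table, normalized apart from the gene table and pooled over the libraries, still had a mean of 187 reads for 6 EEF1G isoforms. For TPT1 the authors' mean was 2289 reads in the isoform table and 424 in the gene table, and for EEF1E1 it was 199 and 29.98. The order was the other way round for EEF1A1 (4099 and 9250.3), EEF2 (461 and 923), BTF3 (802 and 970), NACA (230.5 and 308) and PABPC1 (78.1 and 197). The 2 tables are not on 1 scale, so only these orders are given.

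Most isoform reads of the coding genes were predicted by the authors to be productive, that is, to hold a full reading frame with no early stop. The share was 99.0% for EEF1A1, 99.1% for TPT1, 98.0% for BTF3, 95.7% for NACA, 83.4% for EEF2 and 71.7% for EEF1G. EEF1A1 was led by a productive isoform of 8 exons (1747 bases, mean 3176 reads) and TPT1 by one of 6 exons (817 bases, mean 1803 reads). EEF2 had 23 isoform models, of which 14 carried a premature stop, but a productive form of 3158 bases held a mean of 381 of its 461 reads. The table has 1 pooled mean per isoform and gives no comparison between EV and WC libraries here.

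Copies took most of the counts of the set. Near copies and their parents may share reads, as given below, so these counts set no level for copy transcripts. Members together held 4.38%, 3.25% and 3.03% of all gene counts in EV libraries 1 to 3, against 4.405%, 4.81% and 4.41% in WC libraries, and copies alone held 3.26%, 2.36% and 2.19% in EV and 3.33%, 3.66% and 3.35% in WC libraries. On both measures every EV library lay below every WC library, EV library 1 by little and the other EV libraries by more. Of the 23 tested copies 18 rose and none fell in edgeR's test, against 62.9% of the 1427 tested pseudogenes that rose and 11.4% that fell. At an unadjusted p under 0.05 the count that fell was also 0, none fell with DESeq2, and leaving out EV library 1 made 1 fall, EEF1A1P12. The median log2 fold change was 1.15 for the 23 copies and 1.09 for all tested pseudogenes, so the copies as a set stood near the background of their class. EV and WC values did not overlap for 18 of the 23, against 76.6% of the tested pseudogenes. Enriched in EVs were 6 copies, against 17.9% of the tested pseudogenes. EEF1A1P4, EEF1A1P10 and TPT1P9 entered the test largely through their EV libraries, so their rises are partly set by the filter. They enter these numbers. With total-count scaling 12 copies rose and 5 fell.

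The remaining 97 copies were not tested: 38 had no reads and 59 had at most 53 reads over the 6 libraries, 136 in all in EV and 379 in WC libraries. None of the 6 NACA copies and not the single EEF1E1 copy passed. NACAP2, the most read NACA copy, had 5 reads in EV and 12 in WC libraries, and EEF1E1P1 had 0 and 8, although the parents NACA and EEF1E1 rose.

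The 10 tested copies of EEF1A1 fell into kinds with different values. EEF1A1P5, which differs from the parent at 4 of 1389 aligned bases (99.7% identity), had 6174, 2688 and 2542 reads in EV libraries, against 18381, 26125 and 19939 reads in WC libraries. The parent EEF1A1 had 6956, 3230 and 3095 reads in EV libraries, against 18699, 26638 and 20423 in WC libraries, so the copy nearly equalled it in each. EEF1A1P6 (99.4% identity) and EEF1A1P13 (98.1%) likewise stood at 81.5% to 88.4% and 79.3% to 86.0% of the parent's reads in EV libraries, against 97.4% to 98.2% and 95.8% to 96.4% in WC libraries. These ratios are of reads and not of levels per length. How reads that map to several places were counted is not given in the sources used here, so reads of these copies and of EEF1A1 may be the same reads, and their part in the values was not tested.

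None of these near copies passed the test on its own level. EEF1A1P5 stood at 8469, 6217 and 5803 CPM in EV libraries, against 6314, 6669 and 5799 CPM in WC libraries, overlapping groups with a log2 change of 0.13 (SE 0.13, adjusted p = 0.45, edgeR). EEF1A1P6 (0.12), EEF1A1P13 (0.10), EEF1A1P11 (0.10) and EEF1A1P12 (-0.13) also had adjusted p-values of 0.47 to 0.56. With total-count scaling EEF1A1P5, EEF1A1P6, EEF1A1P11, EEF1A1P12 and EEF1A1P13 had log2 fold changes of -0.52 to -0.78 and fell.

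EEF1A1P24, EEF1A1P10 and EEF1A1P4, each about 93.2% identical to the parent, were few in reads and high in EVs. EEF1A1P24 had 103, 71 and 60 reads in EV libraries, against 69, 70 and 52 reads in the far deeper WC libraries, or 141, 164 and 137 CPM in EV against 23.7, 17.9 and 15.1 CPM in WC libraries. Its log2 fold change was 2.97 (SE 0.21, adjusted p = 2.1e-11, edgeR). EEF1A1P10 had 28, 9 and 13 reads in EV libraries, against 13, 13 and 15 in WC libraries (log2 fold change 2.93, SE 0.35, adjusted p = 1.5e-07). EEF1A1P4 had a log2 change of 2.68 (SE 0.38). The rises of EEF1A1P10 and EEF1A1P4, which entered the test largely through their EV libraries, are partly set by the filter. EEF1A1P19 and EEF1A1P9, with identities of 96.5% and 97.2%, rose by less, with log2 fold changes of 1.15 (SE 0.14) and 0.70 (SE 0.14).

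To compare each copy with its own gene, the counts were also fitted with the parent's reads as the scaling reference, which takes the scaling between EV and WC libraries out of the comparison. It could be done for 21 copies of 5 families, and 10 stood above their parent in EVs and 2 below. With EEF1A1 as the reference 14.9% of all tested genes stood above it and 33.8% below. EEF1A1P24, EEF1A1P10 and EEF1A1P4 stood 2.65, 2.55 and 2.35 above the parent on the log2 scale, and EEF1A1P19 0.82 above it (adjusted p of at most 0.0014, edgeR). The values of EEF1A1P10 and EEF1A1P4 are partly set by the filter, as given above, and both are among the 10. EEF1A1P24 had 1.48%, 2.20% and 1.94% of the parent's reads in EV libraries, against 0.369%, 0.263% and 0.255% in WC libraries.

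EEF1A1P5, EEF1A1P6, EEF1A1P11 and EEF1A1P13 stood 0.21 to 0.24 below the parent in EVs without passing the test, with adjusted p-values of 0.30 to 0.36. Their read ratios did not overlap between the groups. EEF1A1P5 had 88.8%, 83.2% and 82.1% of the parent's reads in EV libraries, against 98.3%, 98.1% and 97.6% in WC libraries. The share of all tested genes with such a separation in this ratio was not computed. As these copies may share reads, they are not separate observations. EEF1A1P12 had 11.4%, 11.7% and 10.2% in EV libraries, against 14.0%, 16.1% and 16.0% in WC libraries, -0.47 relative to the parent (SE 0.20, adjusted p = 0.049). That call was lost with a replicate block (-0.47, adjusted p = 0.13) and on leaving out any 1 library but EV 1, with adjusted p-values of 0.066 to 0.16. Without EV library 1, EEF1A1P11 and EEF1A1P13 also stood below the parent (-0.28 each, adjusted p = 0.031).

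**Figure D3:**
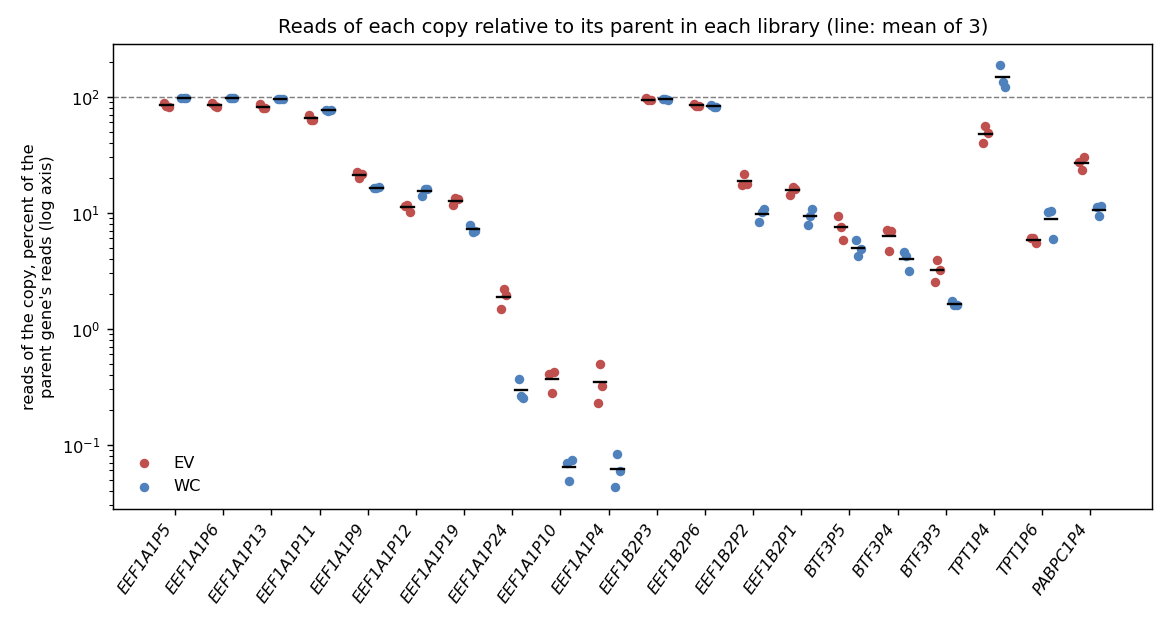
Reads of each tested copy as a percent of its parent gene's reads in the same library, on a log axis, EV left of WC, points for libraries, lines for the mean of 3 and a dashed line at 100%. EEF1A1P24, EEF1A1P10 and EEF1A1P4 lie higher in EV libraries, the near copies of EEF1A1 lie slightly lower, and TPT1P4 lies below 100% in EV and above it in WC libraries; TPT1P9, with no read in 1 WC library, is left out.

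EEF1B2 copies repeated the division by similarity. EEF1B2P3 (99.0% identity) and EEF1B2P6 (97.8%) had 92.7% to 96.9% and 82.7% to 87.1% of the parent's reads in EV libraries, against 93.9% to 95.2% and 80.9% to 85.3% in WC libraries, and these ranges overlapped. Relative to the parent they changed by -0.01 (SE 0.14) and 0.03 (SE 0.15) on the log2 scale, with adjusted p-values of 0.97 and 0.85. Reads of EEF1B2P3, EEF1B2P6 and EEF1B2 may be the same reads, as for EEF1A1. Their part in these values was not tested. On their own levels EEF1B2P3 and EEF1B2P6 rose as EEF1B2 did, with log2 fold changes of 0.57 (SE 0.14) and 0.61 (SE 0.14), which turned to -0.10 and -0.06 with total-count scaling and missed the test with no expression filter (adjusted p = 0.11 and 0.069). EEF1B2P2 (95.6% identity) stood at 167, 268 and 240 CPM in EV libraries, against 68.4, 79.1 and 83.2 CPM in WC libraries, a log2 change of 1.53 (SE 0.19, adjusted p = 2.8e-07, edgeR). Relative to EEF1B2, to which 12.7% of all tested genes stood higher and 42.7% lower, EEF1B2P2 stood 0.95 higher (SE 0.21, adjusted p = 0.0011) and EEF1B2P1 0.74 higher (SE 0.21, adjusted p = 0.0072). In the authors' isoform table the reads of this family stood on a single-exon EEF1B2P3 model without a start codon, with a mean of 1087 reads.

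The subunits with few gene counts of their own had better read copies. EEF1DP1, 95.8% identical to EEF1D over the aligned part, had 191, 85 and 83 reads in EV libraries, against 404, 486 and 418 reads in WC libraries. That is many times the reads of EEF1D itself in all 6 libraries, and EEF1DP1 rose with a log2 change of 0.77 (SE 0.17, adjusted p = 0.00081, edgeR). The canonical EEF1D transcript shares 34.5% of its bases with an annotated gene on the opposite strand, at positions 1370 to 2090 of 2090, the 3′ end. EEF1GP5, 94.1% identical to EEF1G, stood at 207, 449 and 461 CPM in EV libraries, against 143, 144 and 175 CPM in WC libraries (log2 fold change 1.25, SE 0.23, adjusted p = 0.00028, edgeR). EV library 1 was again the lowest EV library, as for EEF1B2.

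BTF3 copies were minor. BTF3P3, BTF3P4 and BTF3P5 had 2.50% to 9.44% of the reads of BTF3 in EV libraries, against 1.59% to 5.82% in WC libraries. They rose by 1.35 (SE 0.30), 1.12 (SE 0.26) and 1.12 (SE 0.25) on the log2 scale. Relative to BTF3, above which 13.8% of all tested genes stood and below which 38.8% did, they stood 0.90, 0.67 and 0.65 higher, with adjusted p-values of 0.023, 0.038 and 0.033. These 3 calls were lost with DESeq2 (adjusted p-values of 0.066 to 0.097) and without WC library 2 (0.076 to 0.17), among others.

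TPT1 had more reads than its copy TPT1P4 in every EV library and fewer in every WC library. TPT1P4 (95.2% identity) stood at 244, 319 and 285 CPM in EV libraries, against 139, 123 and 107 CPM in WC libraries, a log2 change of 1.19 (SE 0.17, adjusted p = 3.2e-06, edgeR). Its reads came to 39.5%, 55.6% and 48.6% of those of TPT1 in EV libraries, against 187%, 134% and 121% in WC libraries. TPT1P4 thus stood 1.62 below the parent on the log2 scale (SE 0.23, adjusted p = 8.0e-10), in a fit where 95.8% of all tested genes stood below TPT1 and 0.769% above it. TPT1P6 and TPT1P9 rose with log2 fold changes of 2.21 (SE 0.30) and 2.55 (SE 0.63), and relative to TPT1 they had values of -0.58 (adjusted p = 0.078) and -0.19 (adjusted p = 0.75). TPT1P9 rests on 7, 4 and 4 reads in EV and 0, 10 and 6 reads in WC libraries. Its rise is partly set by the filter, as for EEF1A1P10 and EEF1A1P4. The counts of TPT1, with the overlap given above, enter each of these ratios, and the part of that overlap was not tested.

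PABPC1P4, 93.6% identical to PABPC1, stood at 56.2, 60.1 and 79.9 CPM in EV libraries, against 7.21, 6.38 and 9.02 CPM in WC libraries. Its log2 change of 3.09 (SE 0.26, adjusted p = 4.9e-10, edgeR) was the highest of the 23 tested copies. PABPC1P4 had 27.5%, 23.2% and 30.4% of the reads of PABPC1 in EV libraries, against 11.1%, 9.29% and 11.4% in WC libraries, and it stood 1.35 above the parent (SE 0.28, adjusted p = 2.0e-05). Of all tested genes 2.9% stood above PABPC1 in that fit and 85.8% below. No other PABPC1 copy had more than 6 reads. The counts of PABPC1, with the overlap given above, enter these ratios, and the part of that overlap was not tested.

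Copies held different shares of each family's reads, given per library as a description. Near copies of EEF1A1 and EEF1B2 may share reads with their parents, so these are shares of counts and not of transcripts. The EEF1A1 copies held 78.4% ± 0.676% of the family's reads in EV and 80.3% ± 0.0208% in WC libraries (SD, n = 3 each). For EEF1B2 the copies held 68.2% ± 0.401% in EV and 66.3% ± 0.0566% in WC libraries. For BTF3 the share was 15.7% ± 2.15% in EV and 10.97% ± 1.14% in WC libraries, and for PABPC1 21.4% ± 1.96% in EV and 10.8% ± 1.33% in WC libraries. TPT1 copies held 36.1% ± 3.56% in EV and 61.3% ± 4.75% in WC libraries, the widest gap of the families. EV and WC values did not overlap in these 5 families, and no background share was computed for this measure. NACA copies held 1.14% ± 0.708% in EV and 2.85% ± 1.34% in WC libraries, with overlapping values. NACA2, which the rule leaves out and which stood higher than NACA, is not counted in this share. The counts of TPT1, PABPC1 and NACA, with the overlaps given above, enter their family shares, and the part of these overlaps was not tested.

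Copies with few reads entered the test largely through the EV libraries: EEF1A1P4 (42 reads in EV and 42 in WC libraries), EEF1A1P10 (50 and 41) and TPT1P9 (15 and 16) were tested, while BTF3P8 (13 and 40) and BTF3P10 (11 and 37) were not. A rise among such thin copies is therefore partly set by the filter, and the counts by identity that follow are a description only. Across the 23 tested copies the log2 fold change was lower the closer a copy was to its parent. Pearson's r was -0.63 and Spearman's rho -0.75 over 23 copies, and -0.79 and -0.64 over the 10 EEF1A1 copies. The copies share the same 6 libraries, and near copies may share reads, so these correlations only describe the set. Of the 7 copies with at least 97% identity 3 rose, with a median log2 fold change of 0.13. Of the 6 copies between 95% and 97% all 6 rose, with a median of 1.26, and of the 10 below 95% 9 rose, with a median of 1.78. EEF1A1P12, at 94.3% identity and -0.13, lay apart from the other copies of its range, and 45 bases of its alignment are gaps.

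**Figure D4:**
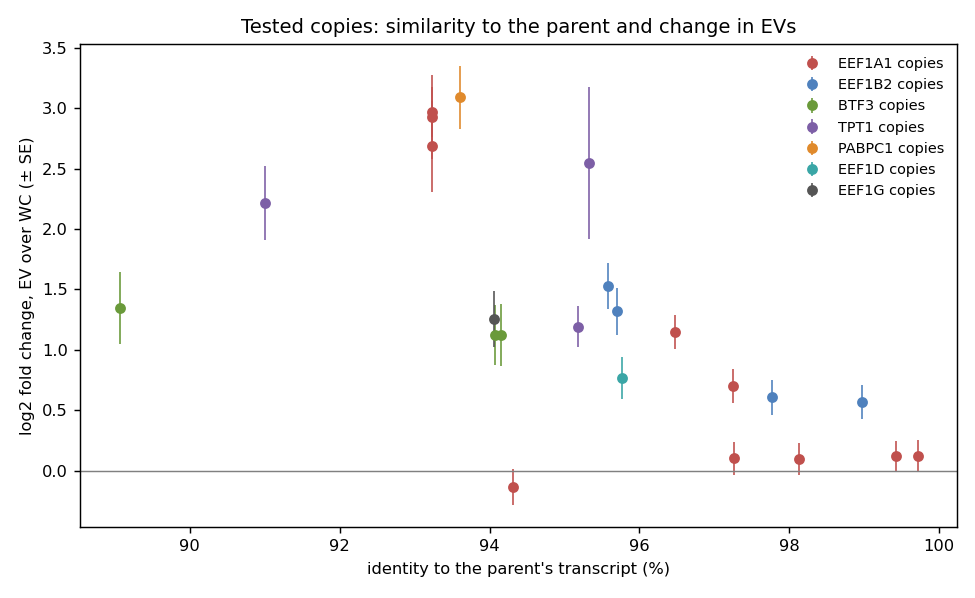
Identity of each of the 23 tested copies to its parent's transcript against its log2 fold change of EV over WC with SE, colours for families. The highest value is 3.09, PABPC1P4 at 93.6% identity, and the lowest is -0.13, EEF1A1P12 at 94.3%, while BTF3P3, the least similar at 89.1%, lies at 1.35 and EEF1A1P5, the most similar at 99.7%, at 0.13.

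Of 54 companion genes of these factors (hypusinated and mitochondrial elongation factors, enzymes that modify eEF1A and eEF2, termination and rescue factors, and partners of NAC and the poly(A)-binding proteins) 33 were tested. In EVs 12 rose and 2 fell, and their median log2 fold change was 0.12, with the background shares of 22.8% and 21.4% given above. With total-count scaling 6 rose and 13 fell, and without EV library 1 or WC library 3 the number that fell was 7 or 4. EIF5A, a factor that eases peptide bond formation, stood at 56.9 ± 24.1 CPM in EV and 13.2 ± 1.01 CPM in WC libraries (SD, n = 3 each), a log2 fold change of 2.17 (adjusted p = 3.3e-07, edgeR). The companion EIF5AL1 stood higher, at 129 ± 71.2 CPM in EV and 147 ± 25.2 CPM in WC libraries. It had no call (log2 fold change -0.13, adjusted p = 0.74, edgeR). TUFM, the mitochondrial counterpart of eEF1A, and ABCE1, a ribosome recycling factor, rose by 1.96 and 1.83 on the log2 scale. ABCE1 passed the expression filter through its EV libraries, so its rise is partly set by the filter.

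PABPC1L, a poly(A)-binding protein gene known from oocytes, fell, with 3.35 ± 2.94 CPM in EV and 23.4 ± 3.66 CPM in WC libraries (SD, n = 3 each, log2 fold change -2.63, adjusted p = 8.4e-05, edgeR). It stood opposite to PABPC1, PABPC3 and PABPC4. PABPC1L passed the expression filter only through its WC libraries, so its fall is partly set by the filter. HBS1L, a ribosome rescue factor related to eEF1A, fell by 0.89 on the log2 scale (adjusted p = 0.0060). EEF2K, the kinase that switches off eEF2, likewise entered through its WC libraries and had a log2 fold change of -1.42 with an adjusted p of 0.051. It passed the test with RLE factors (adjusted p = 0.048), a mean of at least 5 counts (0.047), no filter (0.033), total-count scaling (0.0043) and without WC library 1 (0.032) or EV library 1 (0.011), and over the fits without 1 library its value ran from -3.10 to -0.97.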

How the data were processed

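Polyadenylated RNA of 3 EV and 3 WC samples was sequenced as PCR-cDNA on nanopores. The submitters' processing notes name minimap2, hg38, featureCounts and DESeq2; strand and multi-mapping settings are not given in the sources used here. All tests used the deposited counts per gene and library, which the authors left unnormalized. The deposited signal values are the authors' counts divided by 1 size factor per library, with group means, and only their means were used. The deposited score is the authors' DESeq2 statistic; it and the fold changes and p-values of the authors' gene and isoform comparisons were not used. Isoform models and their mean reads are the authors' FLAIR output.

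The count table has 68247 lines and 68201 gene IDs. The 46 IDs on 2 lines were taken once, from their first line, and for 4 of them the counts of the lines differed. Its 6 sample columns all matched the labels, and 129 of 135 member IDs were found in GENCODE v44. Genes that passed edgeR's expression filter (edgeR 4.0.16, R 4.3.3) were fitted with TMM factors by a robust quasi-likelihood model, EV against WC, with Benjamini-Hochberg adjustment over 8716 genes. For copies against parents, the log of the parent's counts replaced the library sizes, for parents with at least 100 reads in every library. Copies were aligned with blastn 2.17.0 to the parent's annotated isoform with the highest mean reads. Where none was quantified, the canonical transcript was used. Exonic overlap was found with bedtools. Counting limits cover counting error only, since PCR reads carried no molecular tags.

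Named were all coding members, the 3 copies with the highest mean CPM in each family, the 3 highest and 3 lowest log2 fold changes among tested copies and among tested companions. Other copies, NACA2 and EIF5AL1 were named after their values were seen. Members, lists and tests were chosen with earlier results of these data known. Alternatives were RLE and total-count scaling, DESeq2 1.42.0, no filter, a mean of at least 5 counts, a replicate block, thinning of the WC libraries to EV depth, leaving out each library and, for family shares, tested copies alone. That libraries of 1 number belong together comes from the study's methods; the correlations of their deviations from the group means were 0.062, 0.024 and 0.0044. The test was checked on simulated data. Other software was Python 3.11.15, pandas 2.3.3, numpy 2.4.6, scipy 1.17.1 and matplotlib 3.10.9.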

Additional observations from a re-analysis of the deposited data

Results flagged for a closer look

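EEF1G had no gene counts in any of the 6 libraries, while the authors' isoform table, which enters no comparison between EV and WC libraries, gave a pooled mean of 187 reads for its isoforms. Groups of 3 libraries are too small for a check of single outlying libraries.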

How the results depend on the processing

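Numbers of calls moved most with the scaling. With total-count scaling 2 coding members and 5 copies fell, 6 companions rose and 13 fell, and the median log2 fold changes were 1.00 for the coding members and 0.49 for the copies. The same scaling reversed EEF1A1 (-0.32), BTF3 (-0.22), EEF1B2 (-0.089), EEF1B2P3 (-0.10), EEF1B2P6 (-0.057), EEF1A1P5 (-0.52), EEF1A1P6 (-0.53), EEF1A1P11 (-0.55) and EEF1A1P13 (-0.55), since it lowers the median of all genes. With DESeq2 7 companions rose, the median of the copies was 1.36, and EEF1A1P11 had -0.0075 and EEF1A1P13 -0.011. With no expression filter 7 companions rose and 5 fell, the median of the copies was 0.84, and EEF1A1P5 (-0.081), EEF1A1P6 (-0.087), EEF1A1P11 (-0.10) and EEF1A1P13 (-0.11) turned. With WC libraries thinned to the EV depth the median of the copies was 0.96, EEF1A1P11 had -0.014, EEF1B2P6 had -0.028 relative to its parent, and 6 copies stood above and 1 below their parents, with fewer genes and reads tested. With a mean of at least 5 counts 1 copy stood below its parent. For these values, other than where construction is named, the cause was not tested.

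With the replicate block, the pairing of libraries by number, 8 coding members and 18 copies rose, 1 copy stood below its parent, TPT1P9 turned to 0.052 relative to its parent, and EEF1A1 and EEF1A1P12 lost their calls as given in the text; of the companions 11 rose. It changed no other call of a named gene.

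Over the fits without 1 library each, 0 to 1 copies and 2 to 7 companions fell, 7 to 10 copies stood above and 1 to 4 below their parents, and the medians ran from 1.33 to 1.67 for coding members and from 0.93 to 1.19 for copies. The near copies of EEF1A1 changed sign there, with ranges of -0.092 to 0.22 for EEF1A1P5, -0.10 to 0.22 for EEF1A1P6, -0.13 to 0.20 for EEF1A1P11 and -0.12 to 0.19 for EEF1A1P13, and EEF1B2P3 relative to its parent ran from -0.027 to 0.0049. Of 671 values of named genes and copies under alternatives 582 kept their direction and side of the threshold, 49 lost a call, 13 gained one and 27 reversed. Among the tested members TPT1P9, PABPC3, EEF1A1P4 and EEF1A1P10 had the largest standard errors, and the copies with fewer reads were not tested at this depth.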
